A study of Homo sapiens with 12 samples.

Results

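The 39 genes described here encode the enzymes of glycolysis, the regulators that set its flux, and genes known to respond to low oxygen. They were chosen by gene symbol, from a list drawn up with earlier results of these data known. All 39 symbols were found among the 26485 genes of the count table, and 37 of them passed the filter on low counts, which left 14732 genes for testing. ALDOC, the brain form of aldolase, and CA9, a carbonic anhydrase of the cell surface, did not pass it.

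The samples were spheroids of 3 lines made from DU145 cells, a human prostate cancer line established from a brain metastasis. DU145KO cells lack surface α2 integrin, a collagen receptor subunit, after Crispr/Cas9 editing of ITGA2, and carry no further transfection. DU145KO+α2 cells are DU145KO cells stably transfected with α2 integrin cDNA in the pAWneo2 vector, and DU145KO+vector cells carry the empty pAWneo2 vector. All 3 lines therefore carry the edited ITGA2 gene, and both transfected lines were kept in geneticin. Each line is 1 selected cell population with 4 replicates (n = 4, 12 samples in all), described by the study as independent biological replicates, so that differences between the lines include whatever else differs between those populations. Spheroids of 8000 cells had been grown for 72 hours in serum-free medium. Unedited DU145 cells and monolayer cultures were not analysed here, and oxygen was not measured in these samples.

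Glycolysis splits glucose into pyruvate, and lactate dehydrogenase turns pyruvate into lactate when it is not oxidised in mitochondria. When oxygen is low, the prolyl hydroxylases of the EGLN family stop marking the hypoxia-inducible factors (HIF) for destruction, and HIF then raises the transcription of many glycolytic enzymes, of angiogenic factors such as VEGFA and of collagen modifying enzymes. Cells in the middle of a spheroid can lie far enough from the medium to be short of oxygen and nutrients. Many carcinoma cells also express glycolytic enzymes at a high level when oxygen is present.

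The number of counted reads per sample ranged from 13948734 to 19988111, and 3 counts, taken as the detection floor, correspond to between 0.150 and 0.215 normalized CPM (counts scaled to the library size with the TMM method, the scale of all sample values below unless RPKM is named). ITGA2 was measured at 259 to 332 CPM in DU145KO+α2, compared to 13.01 to 20.2 CPM in DU145KO+vector and 15.7 to 25.8 CPM in DU145KO, so that the α2 integrin transcript followed the labels. The 5 epithelial markers (EPCAM, CDH1, KRT8, KRT18 and KRT19) were present in every sample, whereas KLK2 and KLK3 of prostate luminal cells had 0 counts in every sample. Of the 4 immune markers, PTPRC and CD3E had at most 1 count in any sample, while CD68 was at 47.7 to 81.6 CPM and CD14 at 1.27 to 2.63 CPM, and neither of these was called (an adjusted p below 0.05). Of the 5 fibroblast markers, DCN and LUM had at most 1 count and COL1A2 at most 2, while COL1A1 was at 7.64 to 12.1 CPM and PDGFRB at 0.0999 to 0.757 CPM. PDGFRB was called lower in DU145KO+α2, with a log2 fold change of -1.47 ± 0.42 (SE, adjusted p = 0.0322) against DU145KO+vector and -1.48 ± 0.42 (SE, adjusted p = 0.0396) against DU145KO. Of the 4 endothelial markers, VWF and TEK had at most 4 and 3 counts, PECAM1 at most 22 and KDR at most 50, and KDR was called higher in DU145KO+α2 against DU145KO+vector, 1.14 ± 0.29 (SE, adjusted p = 0.0183). The summed level was 57.0 to 76.6, 55.1 to 82.3 and 49.3 to 84.2 CPM for the immune markers in DU145KO+α2, DU145KO+vector and DU145KO, 9.94 to 11.6, 8.40 to 12.2 and 9.71 to 12.5 CPM for the fibroblast markers, and 2.40 to 3.79, 1.09 to 2.55 and 2.83 to 3.80 CPM for the endothelial markers. The summed level of the epithelial markers moved with the line. It was 859 to 1153 CPM in DU145KO+α2, 1141 to 1386 CPM in DU145KO+vector and 1210 to 1583 CPM in DU145KO, and of the 5 markers 1 was called lower compared to DU145KO+vector and 3 compared to DU145KO. CDH1 (E-cadherin) was lower in DU145KO+α2 than in both other lines, with a log2 fold change of -0.70 ± 0.16 (SE, adjusted p = 0.00981) compared to DU145KO+vector and -1.13 ± 0.16 (SE, adjusted p = 0.00054) compared to DU145KO. EPCAM was called lower than in DU145KO in both transfected lines, -1.14 ± 0.11 (SE, adjusted p = 1.86e-05) in DU145KO+α2 and -0.83 ± 0.11 (SE, adjusted p = 0.00093) in DU145KO+vector. Between the transfected lines it was not called, -0.31 ± 0.11 (SE, adjusted p = 0.0917). The part of these markers in the results below was not tested. In bulk RNA a change in the share of cells that express a gene cannot be told apart from a change of its level within cells.

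The promoters of PFKFB4, LOX, BNIP3 and P4HA1 are shown because these genes had the largest differences between DU145KO+α2 and DU145KO+vector among those called against both α2 negative lines and found in the promoter table, and because HIF is known to bind ACGTG or GCGTG. Each line gives the 250 bases before the transcript start that the promoter table uses, 5′ to 3′ on the strand of the gene, from RefSeq (GRCh38.p14), with ACGTG or GCGTG on either strand (CACGT or CACGC on the other strand) in capitals. PFKFB4 lies at chr3:48556804-48557053 on the minus strand, LOX at chr5:122078260-122078509 on the minus strand, BNIP3 at chr10:131981924-131982173 on the minus strand and P4HA1 at chr10:73096867-73097116 on the minus strand. The starts of LOX, BNIP3 and P4HA1 are the ends of the annotated genes, whereas that of PFKFB4 lies 6333 bases inside the annotated span of the gene.
PFKFB4: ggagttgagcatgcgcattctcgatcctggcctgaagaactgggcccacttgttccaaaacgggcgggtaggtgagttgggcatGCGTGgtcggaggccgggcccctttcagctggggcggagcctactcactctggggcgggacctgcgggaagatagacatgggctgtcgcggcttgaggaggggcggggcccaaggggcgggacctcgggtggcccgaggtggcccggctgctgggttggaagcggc
LOX: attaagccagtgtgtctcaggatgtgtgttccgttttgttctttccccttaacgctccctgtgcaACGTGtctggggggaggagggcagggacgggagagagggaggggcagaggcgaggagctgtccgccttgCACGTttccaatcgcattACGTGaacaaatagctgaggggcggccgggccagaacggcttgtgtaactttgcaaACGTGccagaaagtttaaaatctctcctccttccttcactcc
BNIP3: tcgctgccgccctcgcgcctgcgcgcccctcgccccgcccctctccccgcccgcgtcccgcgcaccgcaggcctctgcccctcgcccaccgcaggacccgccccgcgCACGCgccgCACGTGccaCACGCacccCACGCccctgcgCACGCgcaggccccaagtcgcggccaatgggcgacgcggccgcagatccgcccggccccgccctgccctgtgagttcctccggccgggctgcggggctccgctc
P4HA1: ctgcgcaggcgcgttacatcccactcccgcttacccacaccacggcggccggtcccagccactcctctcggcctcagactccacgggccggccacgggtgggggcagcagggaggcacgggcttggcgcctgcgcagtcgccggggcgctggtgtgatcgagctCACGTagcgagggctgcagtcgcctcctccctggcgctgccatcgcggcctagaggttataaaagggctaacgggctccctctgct
PFKFB4 and P4HA1 hold 1 match each, 166 and 86 bases before that start. LOX holds 4 matches between 185 and 42 bases before the start, and BNIP3 holds 6 between 143 and 104 bases before it, of which the palindrome CACGTG counts as 2 because it reads the same on both strands. Over windows from 250 bases before to 50 bases after the start, 28 of the 36 member genes with a promoter in the table had at least 1 match (77.8%), compared to 62.5% of the 11572 promoters of genes tested and 48.4% of all 27305 promoters. A match of 5 letters is therefore common, and among the genes called higher against both α2 negative lines it was found in 10 of 12 promoters, compared to 16 of 22 promoters of the other member genes tested. VEGFA, NDRG1 and HILPDA had no entry in the table.

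The member genes covered a wide range of levels. In RPKM (reads scaled by gene length and library size, the authors' values, which allow levels of different genes to be compared), GAPDH, the central dehydrogenase of glycolysis, had the highest mean over the 12 samples, 845 RPKM. It was followed by ENO1 (enolase) with 388 RPKM, ALDOA (aldolase) with 272 RPKM and VEGFA (vascular endothelial growth factor A) with 262 RPKM. TPI1 (triosephosphate isomerase) and LDHA (lactate dehydrogenase A) came next, with 260.1 and 237 RPKM. The enzymes from aldolase onwards held most of the top places, while hexokinase 1 (HK1), which admits glucose to the pathway, had 20.8 RPKM and hexokinase 2 (HK2) only 2.42 RPKM. At the other end stood the inducible genes ADM (adrenomedullin) with 1.89 RPKM, LOX (lysyl oxidase) with 1.41 RPKM, ANKRD37 with 1.0 RPKM and CA12 (carbonic anhydrase 12) with 0.505 RPKM. ALDOC had between 4 and 12 counts per sample and CA9 between 0 and 3, so that CA9 did not exceed the detection floor in any sample and no difference between the lines was detectable for it at this depth. Neighbours in this order, such as TPI1 and LDHA, had ranges over the 12 samples that overlapped.

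**Figure D1:**
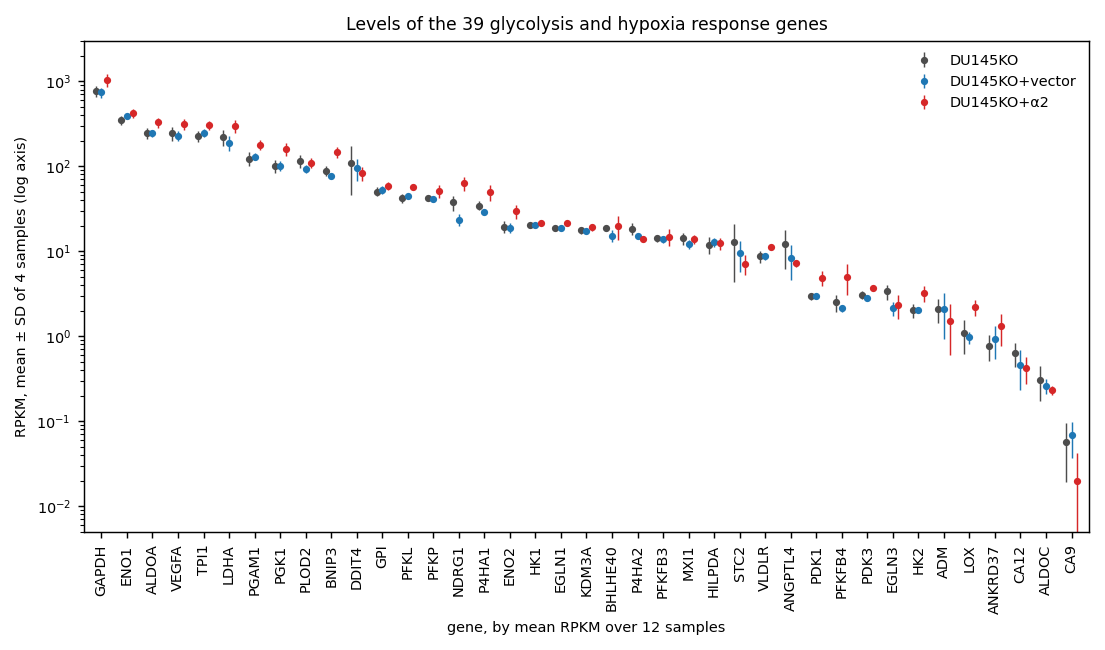
Levels of the 39 genes in RPKM (mean ± SD of 4 samples per line, log axis), ordered by the mean over 12 samples. The levels run from 845 RPKM for GAPDH to 0.0484 RPKM for CA9, and the points of DU145KO+α2 lie above those of both other lines for NDRG1, BNIP3, P4HA1, PFKFB4, LOX and most glycolytic enzymes.

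DU145KO+α2 was compared to DU145KO+vector, the comparison that differs by the α2 integrin cDNA, and to DU145KO, the parental line. Of the 37 member genes tested, 18 were called higher and 0 lower in DU145KO+α2 when compared to DU145KO+vector, where 5.96% of all genes tested were called higher and 5.95% lower (a call is an adjusted p below 0.05 in edgeR's quasi-likelihood test with Benjamini-Hochberg adjustment over all genes tested). At an unadjusted p below 0.05 no member was lower either, nor was any called lower by DESeq2 or by voom with limma. Compared to DU145KO, 14 members were called higher and 1 lower, where 3.09% of all genes tested were called higher and 5.08% lower. Between them, 13 members were called higher in both comparisons, which share the DU145KO+α2 samples. These were the glycolytic enzymes ALDOA, ENO2, HK2, PFKL, PGAM1 and PGK1, the flux regulators PFKFB4 and PDK1, the collagen modifying enzymes P4HA1 and LOX, and BNIP3, NDRG1 and VLDLR. The share of all genes tested that was called higher in both comparisons was not determined. GAPDH, LDHA, PDK3, PFKP and VEGFA were called higher compared to DU145KO+vector alone, TPI1 compared to DU145KO alone, and P4HA2 was called lower compared to DU145KO. The median log2 fold change of the 37 genes was 0.35 compared to DU145KO+vector and 0.26 compared to DU145KO, beside a median of -0.0062 and -0.0031 over all genes tested.

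Most of these differences were smaller than 2-fold. With a fold change above 2 required as well, 3 members were called in DU145KO+α2 compared to DU145KO+vector (NDRG1, PFKFB4 and LOX) and 0 compared to DU145KO, where 2.21% and 2.10% of all genes tested met both conditions. The labels give replicate numbers but state no pairing. Deviations from the line means correlated by 0.135 to 0.554 between samples with the same number, and by -0.290 to 0.149 between different numbers. With the replicate number as a block, 23 members were called higher and 0 lower compared to DU145KO+vector (12.9% and 13.7% of all genes tested). Compared to DU145KO, 22 were then called higher and 3 lower (P4HA2, STC2 and EGLN3), beside 9.93% and 12.4% of all genes tested. Under this block 1 member, LOX, also exceeded a fold change of 2 compared to DU145KO.

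**Figure D2:**
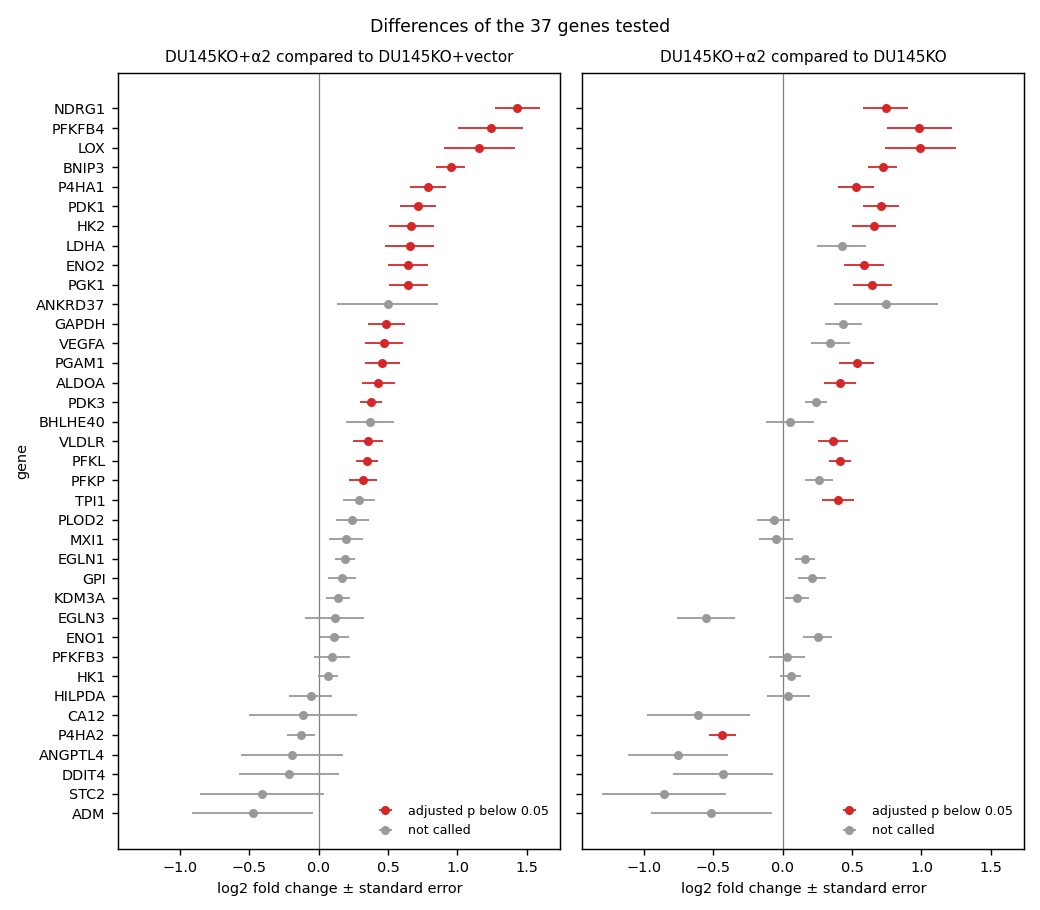
Log2 fold change ± SE of the 37 genes tested in DU145KO+α2 compared to DU145KO+vector (left) and to DU145KO (right), with called genes in red. 18 genes are called on the left, all above 0, and 14 above and 1 below 0 on the right.

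Of the 13 glycolytic enzymes tested, 9 were called higher in DU145KO+α2 when compared to DU145KO+vector, and 7 when compared to DU145KO, with a median log2 fold change of 0.43 and 0.41. Over all genes tested, 5.96% and 3.09% were called higher. The 14 enzymes together took 0.725% ± 0.107 of all counts in DU145KO+α2 (SD, n = 4), 0.560% ± 0.0536 in DU145KO+vector and 0.556% ± 0.0733 in DU145KO. The lowest share in DU145KO+α2, 0.644%, was above the highest share in either α2 negative line, 0.626%.

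At the entry of the pathway, HK2, the inducible hexokinase, was measured at 16.1, 26.2, 21.4 and 27.7 CPM in DU145KO+α2 (replicates in the order 1 to 4, as for the other genes) compared to 13.7, 15.00, 15.00 and 13.9 CPM in DU145KO+vector and 11.1, 17.5, 15.9 and 13.5 CPM in DU145KO. All DU145KO+α2 samples were above those of DU145KO+vector, but replicate 1 lay within the range of DU145KO. The log2 fold change was 0.67 ± 0.16 (SE, adjusted p = 0.0121) compared to DU145KO+vector and 0.66 ± 0.16 (SE, adjusted p = 0.0172) compared to DU145KO. The more abundant HK1 differed little, with log2 fold changes of 0.065 ± 0.073 (SE, adjusted p = 0.649) and 0.057 ± 0.073 (SE, adjusted p = 0.73), neither of them called. GPI, which isomerises glucose 6-phosphate, had 290.3 to 357 CPM in DU145KO+α2 against 249 to 323 CPM in DU145KO+vector, and 241 to 308 CPM in DU145KO, with overlapping groups. It was called with the replicate block alone, with a log2 fold change of 0.17 ± 0.057 (SE, adjusted p = 0.0305) and 0.21 ± 0.057 (SE, adjusted p = 0.00892).

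Phosphofructokinase, the committed step of glycolysis, is made of subunits encoded by separate genes. PFKL, the liver type subunit, was measured at 189, 197, 182 and 204 CPM in DU145KO+α2 compared to 164, 148, 141 and 153 CPM in DU145KO+vector, and 163, 144, 125 and 147 CPM in DU145KO, without overlap. Its difference was small but had a small error, 0.35 ± 0.08 (SE, adjusted p = 0.00888) compared to DU145KO+vector and 0.41 ± 0.08 (SE, adjusted p = 0.00382) compared to DU145KO. PFKP, the platelet type subunit, reached 126, 159, 138 and 185 CPM in DU145KO+α2 against 111, 127, 121 and 129 CPM in DU145KO+vector, and 126, 134, 118 and 129 CPM in DU145KO. Its groups overlapped, since replicate 1 of DU145KO+α2 was within the range of both other lines. On the log2 scale the difference was 0.32 ± 0.10 (SE, adjusted p = 0.0478) compared to DU145KO+vector and 0.26 ± 0.10 (SE, adjusted p = 0.129) compared to DU145KO, the latter 0.25 ± 0.064 (SE, adjusted p = 0.00695) with the block.

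ALDOA splits the phosphorylated sugar into a pair of smaller ones, and its level was 987, 1034, 938 and 1275 CPM in DU145KO+α2 compared to 841, 754, 689 and 856 CPM in DU145KO+vector, and 901, 830.3, 646 and 801 CPM in DU145KO. The lowest DU145KO+α2 sample was above the highest sample of both other lines. This gave a log2 fold change of 0.43 ± 0.12 (SE, adjusted p = 0.0238) and 0.41 ± 0.12 (SE, adjusted p = 0.0383). TPI1, which interconverts those products, was measured at 574, 514, 508 and 661 CPM in DU145KO+α2 against 514, 422, 418 and 491 CPM in DU145KO+vector, and 494, 409.7, 348 and 456 CPM in DU145KO. Replicate 3 of DU145KO+α2 was below replicate 1 of DU145KO+vector, and all 4 samples of the line were above DU145KO. TPI1 was called compared to DU145KO, 0.40 ± 0.11 (SE, adjusted p = 0.041), and compared to DU145KO+vector only with the block, 0.29 ± 0.059 (SE, adjusted p = 0.000812) in place of 0.29 ± 0.11 (SE, adjusted p = 0.122).

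GAPDH, often used as a reference gene, was measured at 1797, 1865, 1707 and 2476 CPM in DU145KO+α2 compared to 1463, 1351, 1169.8 and 1612 CPM in DU145KO+vector, and 1663, 1438, 1168 and 1522 CPM in DU145KO. All samples of DU145KO+α2 exceeded those of the other lines, although the lowest of them and the highest DU145KO sample were close. In log2 terms DU145KO+α2 differed by 0.49 ± 0.14 (SE, adjusted p = 0.027) compared to DU145KO+vector and 0.44 ± 0.14 (SE, adjusted p = 0.0589) compared to DU145KO, the latter 0.43 ± 0.072 (SE, adjusted p = 0.000144) with the block. PGK1, the first enzyme of the pathway to yield ATP, had 396, 313, 351 and 470.3 CPM in DU145KO+α2 against 281, 216, 219 and 262 CPM in DU145KO+vector, and 288, 236, 193 and 261 CPM in DU145KO. There was no overlap, and the difference was alike in both comparisons, 0.64 ± 0.14 (SE, adjusted p = 0.00719) and 0.65 ± 0.14 (SE, adjusted p = 0.00933). PGAM1, phosphoglycerate mutase, was measured at 299, 315, 259 and 357 CPM in DU145KO+α2 compared to 236, 225, 196 and 240.0 CPM in DU145KO+vector, and 247, 214, 159 and 230.4 CPM in DU145KO. Here too the groups were apart, with a log2 fold change of 0.46 ± 0.13 (SE, adjusted p = 0.0269) and 0.53 ± 0.13 (SE, adjusted p = 0.0151).

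The enolases differed from each other. ENO2, known as the neuronal enolase, was measured at 61.8, 64.1, 66.8 and 93.1 CPM in DU145KO+α2 against 48.5, 42.9, 39.03 and 52.2 CPM in DU145KO+vector, and 48.7, 51.6, 36.9 and 53.2 CPM in DU145KO, without overlap. Its log2 fold change was 0.65 ± 0.14 (SE, adjusted p = 0.00867) compared to DU145KO+vector and 0.59 ± 0.14 (SE, adjusted p = 0.0195) compared to DU145KO. ENO1, the common form with far higher RPKM, had 1204 to 1599 CPM in DU145KO+α2 compared to 1156 to 1351 CPM in DU145KO+vector, and 1009 to 1317 CPM in DU145KO, and these ranges overlapped. It was not called (0.11 ± 0.10 (SE, adjusted p = 0.553) and 0.25 ± 0.10 (SE, adjusted p = 0.161)), except compared to DU145KO with the block, 0.25 ± 0.062 (SE, adjusted p = 0.00492). LDHA, which regenerates NAD+ by making lactate, was measured at 804, 614, 704 and 932 CPM in DU145KO+α2 against 618, 416, 411 and 493 CPM in DU145KO+vector, and 718, 568, 418 and 571 CPM in DU145KO. Replicate 2 of DU145KO+α2 lay just below replicate 1 of DU145KO+vector. The log2 fold change was 0.66 ± 0.17 (SE, adjusted p = 0.0257) compared to DU145KO+vector and 0.43 ± 0.17 (SE, adjusted p = 0.171) compared to DU145KO, the latter 0.44 ± 0.11 (SE, adjusted p = 0.0163) with the block. GAPDH has 65 pseudogenes in RefSeq, BNIP3 46, PGAM1 13, LDHA 6, and ENO1 and TPI1 4 each, and since the authors counted only uniquely aligned reads, the levels of these genes are uncertain.

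Of the 4 flux regulators, 3 were called higher than in DU145KO+vector (5.96% of all genes tested). PFKFB4, a bifunctional enzyme that makes and removes the sugar phosphate which activates phosphofructokinase, was measured at 13.1, 16.4, 12.7 and 27.7 CPM in DU145KO+α2 compared to 7.09, 7.54, 6.61 and 8.40 CPM in DU145KO+vector, and 8.40, 10.6, 6.20 and 10.1 CPM in DU145KO. All DU145KO+α2 samples were above all others, and replicate 4 stood well above the other three. On the log2 scale the difference was 1.24 ± 0.24 (SE, adjusted p = 0.00331) compared to DU145KO+vector and 0.99 ± 0.23 (SE, adjusted p = 0.0163) compared to DU145KO. Its relative PFKFB3 had 58.8 to 93.7 CPM in DU145KO+α2 against 61.6 to 75.02 CPM in DU145KO+vector, and 61.1 to 75.9 CPM in DU145KO, was not called, and had log2 fold changes of 0.10 ± 0.13 (SE, adjusted p = 0.716) and 0.035 ± 0.13 (SE, adjusted p = 0.922).

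The pyruvate dehydrogenase kinases hold pyruvate back from oxidation in mitochondria by inactivating pyruvate dehydrogenase. PDK1 was measured at 24.7, 22.9, 29.7 and 36.8 CPM in DU145KO+α2 compared to 18.1, 16.7, 15.6 and 18.9 CPM in DU145KO+vector, and 19.5, 16.2, 17.6 and 16.4 CPM in DU145KO. The groups did not overlap, and the α2 negative lines were at nearly the same level. This gave a log2 fold change of 0.72 ± 0.13 (SE, adjusted p = 0.0019) compared to DU145KO+vector and 0.71 ± 0.13 (SE, adjusted p = 0.00269) compared to DU145KO. PDK3 had 46.5, 48.7, 51.4 and 46.7 CPM in DU145KO+α2 against 36.9, 37.96, 38.6 and 35.5 CPM in DU145KO+vector, and 39.1, 46.6, 41.2 and 36.4 CPM in DU145KO. It was apart from DU145KO+vector and overlapped DU145KO only at its replicate 2. In log2 terms DU145KO+α2 differed by 0.38 ± 0.079 (SE, adjusted p = 0.00524) compared to DU145KO+vector and 0.24 ± 0.079 (SE, adjusted p = 0.0723) compared to DU145KO, the latter 0.25 ± 0.063 (SE, adjusted p = 0.00691) with the block.

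Of the secreted factors, VEGFA alone was called. Its level, the highest of the 4 in RPKM, was 1268, 994, 1388 and 1102 CPM in DU145KO+α2 compared to 941, 789.8, 967 and 732 CPM in DU145KO+vector, and 891, 885, 1195 and 774 CPM in DU145KO. All DU145KO+α2 samples exceeded DU145KO+vector, while replicate 3 of DU145KO was above replicates 2 and 4 of DU145KO+α2. Its log2 fold change was 0.47 ± 0.14 (SE, adjusted p = 0.0372) compared to DU145KO+vector and 0.34 ± 0.14 (SE, adjusted p = 0.157) compared to DU145KO, the latter 0.35 ± 0.066 (SE, adjusted p = 0.000491) with the block. The other three were not called higher and had log2 fold changes below 0. STC2, a stanniocalcin known to respond to stress of the endoplasmic reticulum, had 26.6 to 49.4 CPM in DU145KO+α2 against 31.04 to 77.7 CPM in DU145KO+vector, and 37.7 to 135 CPM in DU145KO. Its log2 fold change compared to DU145KO was -0.85 ± 0.44 (SE, adjusted p = 0.308), and it was called lower there with the block, -0.72 ± 0.20 (SE, adjusted p = 0.0446). ANGPTL4, an inhibitor of lipoprotein lipase, had 12.7 to 15.8 CPM in DU145KO+α2 compared to 12.6 to 39.3 CPM in DU145KO, with a log2 fold change of -0.75 ± 0.36 (SE, adjusted p = 0.264). ADM, a vasodilator peptide, had 1.37 to 4.52 CPM in DU145KO+α2 compared to 1.55 to 5.85 CPM in DU145KO+vector, with a log2 fold change of -0.48 ± 0.44 (SE, adjusted p = 0.567).

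**Figure D3:**
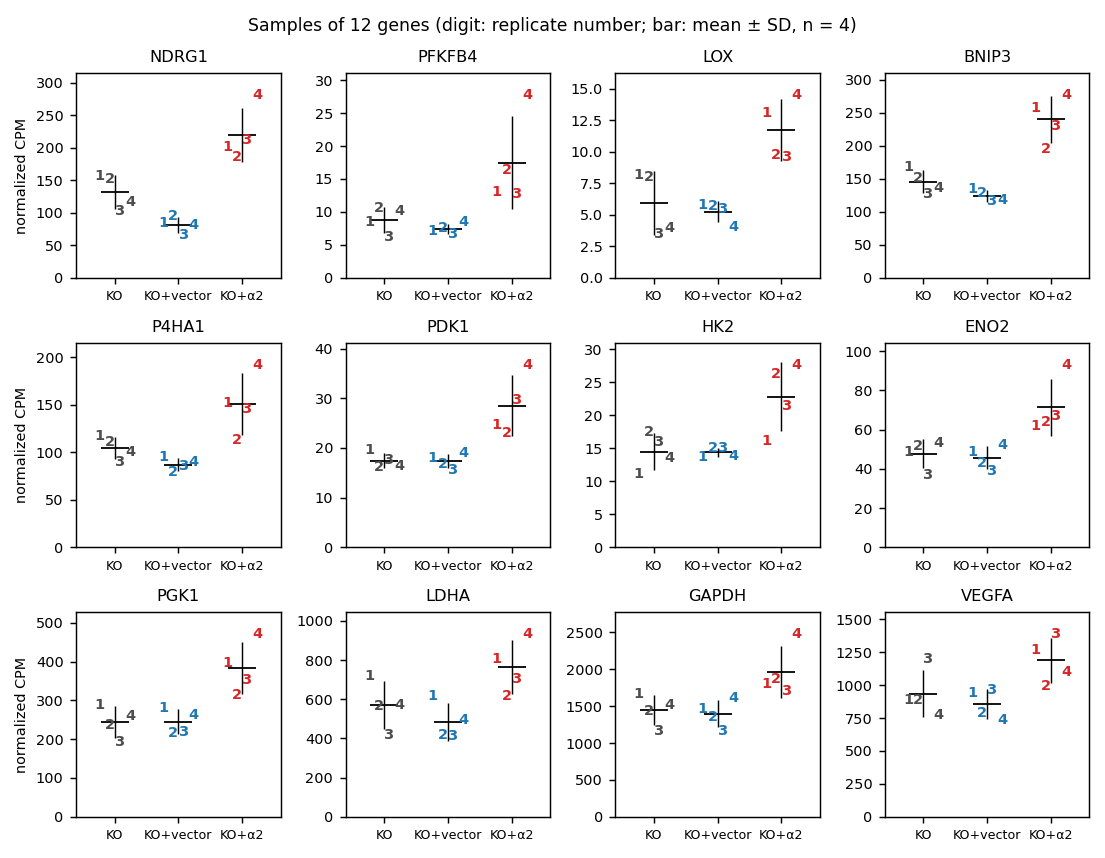
Normalized CPM of 12 genes in every sample (linear axes from 0), with the replicate number as the symbol and mean ± SD of 4 samples per line as bars. The DU145KO+α2 samples lie above all DU145KO+vector samples in every panel but LDHA, and replicate 4 is the highest DU145KO+α2 sample in every panel but VEGFA.

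Enzymes that modify collagen split into different directions. P4HA1, a catalytic subunit of the prolyl hydroxylase that stabilises the collagen triple helix, was measured at 152, 113, 145 and 192 CPM in DU145KO+α2 compared to 94.5, 78.8, 85.1 and 89.8 CPM in DU145KO+vector, and 117, 110.3, 89.7 and 100.3 CPM in DU145KO. It was apart from DU145KO+vector, and replicate 2 lay within the range of DU145KO. The log2 fold change was 0.79 ± 0.13 (SE, adjusted p = 0.00131) compared to DU145KO+vector and 0.53 ± 0.13 (SE, adjusted p = 0.0211) compared to DU145KO. LOX, which cross-links collagen and elastin, had 13.1, 9.74, 9.62 and 14.5 CPM in DU145KO+α2 against 5.81, 5.67, 5.46 and 3.99 CPM in DU145KO+vector, and 8.20, 8.0, 3.44 and 3.98 CPM in DU145KO. All DU145KO+α2 samples were above both other lines, and within DU145KO replicates 1 and 2 were well above replicates 3 and 4. On the log2 scale the difference was 1.16 ± 0.26 (SE, adjusted p = 0.00874) and 0.99 ± 0.25 (SE, adjusted p = 0.0256).

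P4HA2 (chr5:132190147-132227853), the alternative subunit of the same hydroxylase, went the other way. It was measured at 36.7, 36.95, 36.3 and 38.7 CPM in DU145KO+α2 compared to 40.8, 43.8, 38.98 and 39.1 CPM in DU145KO+vector, and 48.00, 53.97, 59.03 and 39.8 CPM in DU145KO. DU145KO+α2 was below both other lines without overlap, but was called lower only compared to DU145KO, -0.43 ± 0.10 (SE, adjusted p = 0.0116), and not compared to DU145KO+vector, -0.13 ± 0.10 (SE, adjusted p = 0.478). The 51 genes tested within 5 Mb of P4HA2 had a median log2 fold change of -0.18 compared to DU145KO, and the 18 genes within 5 Mb of LOX, which lies on the same chromosome, -0.25; over all members these medians ran from -0.25 to 0.076. Their part in the values of P4HA2 and LOX was not tested. PLOD2, a lysyl hydroxylase of collagen, had 381 to 512 CPM in DU145KO+α2 against 352 to 433 CPM in DU145KO+vector, and 381 to 568 CPM in DU145KO. It was not called in either comparison, 0.24 ± 0.12 (SE, adjusted p = 0.226) and -0.064 ± 0.12 (SE, adjusted p = 0.83), but was called higher than DU145KO+vector with the block, 0.24 ± 0.07 (SE, adjusted p = 0.0157).

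NDRG1, a growth regulator known to be induced by hypoxia and differentiation, had the largest difference of all members compared to DU145KO+vector. It was measured at 201, 186, 211 and 281 CPM in DU145KO+α2 compared to 84.6, 95.4, 65.3 and 80.6 CPM in DU145KO+vector, and 156, 151, 102 and 116 CPM in DU145KO. The 3 lines did not overlap, with DU145KO between the others. This gave a log2 fold change of 1.43 ± 0.16 (SE, adjusted p = 0.000149) compared to DU145KO+vector and 0.74 ± 0.16 (SE, adjusted p = 0.012) compared to DU145KO. BNIP3, a receptor that marks mitochondria for removal, was measured at 257, 195, 231 and 277 CPM in DU145KO+α2 against 135, 128, 117 and 117 CPM in DU145KO+vector, and 168, 151, 127 and 137 CPM in DU145KO. DU145KO+α2 was apart from both lines. In log2 terms DU145KO+α2 differed by 0.95 ± 0.11 (SE, adjusted p = 5.39e-05) and 0.72 ± 0.11 (SE, adjusted p = 0.00048), the smallest adjusted p among the members in both comparisons.

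VLDLR, a receptor that takes up lipoproteins, had 40.8, 39.7, 41.1 and 42.3 CPM in DU145KO+α2 compared to 33.1, 32.8, 34.3 and 27.7 CPM in DU145KO+vector, and 32.7, 36.5, 34.03 and 24.2 CPM in DU145KO. The DU145KO+α2 samples were close together and above all others. Its log2 fold change was 0.36 ± 0.11 (SE, adjusted p = 0.0408) and 0.36 ± 0.11 (SE, adjusted p = 0.0479). HILPDA, a protein of lipid droplets, and DDIT4, an inhibitor of mTOR complex signalling, were not called. HILPDA had 14.6 to 21.5 CPM in DU145KO+α2 compared to 16.1 to 21.5 CPM in DU145KO+vector, a log2 fold change of -0.058 ± 0.15 (SE, adjusted p = 0.872). DDIT4 had 106 to 162 CPM in DU145KO+α2 compared to 116 to 359.6 CPM in DU145KO, where replicate 3 was the highest of all samples, a log2 fold change of -0.43 ± 0.36 (SE, adjusted p = 0.567).

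None of the 6 oxygen sensors and transcriptional regulators was called in DU145KO+α2 compared to either line, by edgeR, DESeq2 or voom with limma, while at an unadjusted p below 0.05 1 was higher than in DU145KO+vector and 1 higher and 1 lower than in DU145KO. EGLN1, the main oxygen sensing prolyl hydroxylase, was nevertheless at 148, 148, 145 and 166 CPM in DU145KO+α2 against 137, 129, 130.4 and 136 CPM in DU145KO+vector, and 139, 141, 121 and 143 CPM in DU145KO. These groups did not overlap, and the log2 fold change was 0.19 ± 0.07 (SE, adjusted p = 0.0972) and 0.16 ± 0.07 (SE, adjusted p = 0.191), which were called with the block (0.19 ± 0.052 (SE, adjusted p = 0.0103) and 0.16 ± 0.052 (SE, adjusted p = 0.0285)). Neither was called with the block when DU145KO+α2 replicate 4 was left out (adjusted p = 0.0519 and 0.114). EGLN3, the inducible member of the same family, had 6.58, 5.19, 4.55 and 9.03 CPM in DU145KO+α2 compared to 7.09, 6.32, 4.60 and 5.30 CPM in DU145KO+vector, and 8.99, 10.4, 6.76 and 10.8 CPM in DU145KO. Its mean was highest in DU145KO, with a log2 fold change of -0.55 ± 0.21 (SE, adjusted p = 0.131) that was called with the block, -0.56 ± 0.14 (SE, adjusted p = 0.00646). MXI1, an antagonist of MYC, had 46.3 to 61.3 CPM in DU145KO+α2 compared to 39.4 to 51.7 CPM in DU145KO+vector, and was called higher with the block, 0.20 ± 0.066 (SE, adjusted p = 0.0304) in place of 0.20 ± 0.12 (SE, adjusted p = 0.362).

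KDM3A, a histone demethylase, BHLHE40, a transcriptional repressor of the circadian clock, and ANKRD37 were not called with or without the block. Their log2 fold changes compared to DU145KO+vector were 0.14 ± 0.086 (SE, adjusted p = 0.349), 0.37 ± 0.17 (SE, adjusted p = 0.213) and 0.50 ± 0.36 (SE, adjusted p = 0.446). ANKRD37 shares 40.3% of its exon bases with UFSP2, and BHLHE40 12.8% with BHLHE40-AS1, on the opposite strand, and the strand setting of the counting was not given in the sources used here. CA12 had 1.0 to 2.48 CPM in DU145KO+α2 against 0.632 to 2.77 CPM in DU145KO+vector, and 1.60 to 3.50 CPM in DU145KO, and was not called, -0.11 ± 0.39 (SE, adjusted p = 0.901) and -0.61 ± 0.37 (SE, adjusted p = 0.391).

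Seen over all members, the DU145KO+α2 samples were entirely above the DU145KO+vector samples for 17 of the 37 genes, of which 16 were called, and entirely below for 1, P4HA2, where 8.40% of all genes tested were entirely above and 8.80% entirely below. The groups overlapped for 19 genes, among them the called LDHA and PFKP. Compared to DU145KO, DU145KO+α2 was entirely above for 14 genes, of which 12 were called, entirely below for 1, and overlapped for 22, among them the called HK2 and P4HA1, where 5.51% of all genes tested were entirely above and 7.43% entirely below.

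The 2 α2 negative lines were compared with each other to see how far they differed without α2 integrin. Of the 37 members, 0 were called higher and 1 lower in DU145KO+vector than in DU145KO, where 0.496% of all genes tested were called higher and 1.84% lower, and 0.835% met the fold change above 2 as well, among them no member. DESeq2 and voom with limma also called 0 members higher and 1 lower, and at an unadjusted p below 0.05 0 were higher and 5 lower (NDRG1, EGLN3, P4HA2, PLOD2 and BNIP3). The gene called was NDRG1, whose 4 samples in DU145KO+vector were all below DU145KO, with a log2 fold change of -0.69 ± 0.16 (SE, adjusted p = 0.0467), and -0.69 ± 0.18 (SE, adjusted p = 0.0583) with the block. With the block, 0 members were called higher and 4 lower (5.59% and 7.85% of all genes tested), namely EGLN3 (-0.65 ± 0.14 (SE, adjusted p = 0.00483)), MXI1 (-0.24 ± 0.066 (SE, adjusted p = 0.0187)), P4HA2 (-0.30 ± 0.084 (SE, adjusted p = 0.0235)) and PLOD2 (-0.30 ± 0.07 (SE, adjusted p = 0.00827)). The glycolytic enzymes had a median log2 fold change of -0.0082, and none of the 13 tested was called or had an unadjusted p below 0.05 with edgeR, nor was any called by DESeq2 or by voom with limma. The median of all 37 members was -0.061. BHLHE40 was the only other member without overlap, at 35.99 to 50.7 CPM in DU145KO+vector and 52.6 to 63.6 CPM in DU145KO, and over all genes tested 3.96% were entirely above and 4.80% entirely below DU145KO. The call of NDRG1 was lost when any of 9 samples was left out (DU145KO replicates 1 and 2, DU145KO+α2 replicates 1 to 3, and each DU145KO+vector sample), with a log2 fold change between -0.79 and -0.59 and an adjusted p of up to 0.133.

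Replicate 4 of DU145KO+α2 carried the highest values. It was the highest of all 12 samples for 23 of the 37 members, compared to 9.18% of all genes tested. Among the 4 DU145KO+α2 samples it was the highest for 30 members, compared to 24.7% of all genes tested. Its level of PFKFB4, 27.7 CPM, compares to 12.7 to 16.4 CPM in the other DU145KO+α2 samples, and its level of ENO2, 93.1 CPM, to 61.8 to 66.8 CPM. Without this sample 11 members were called higher than in DU145KO+vector (4.60% of all genes tested) and 7 higher and 2 lower than in DU145KO (1.99% and 3.64%). The members called higher were BNIP3, ENO2, NDRG1, PDK1, PFKFB4, PFKL and PGK1 in both comparisons and HK2, LOX, P4HA1 and PDK3 compared to DU145KO+vector alone, and EGLN3 and P4HA2 were the members called lower. The median log2 fold change of the members was then 0.25 and 0.26. With the block and without this sample, an alternative chosen after seeing the data, 19 members were called higher than in DU145KO+vector (10.6% of all genes tested) and 20 higher than in DU145KO (7.67%). EGLN1, GPI, MXI1 and PLOD2 then lost the call that the block had given them against DU145KO+vector (adjusted p = 0.0519, 0.0953, 0.109 and 0.0851). Against DU145KO, EGLN1 and PFKP lost it (adjusted p = 0.114 and 0.053).

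The 11 members called higher than in DU145KO+vector without DU145KO+α2 replicate 4 kept the call with any 1 of the 12 samples left out. The lowest log2 fold change among these fits was 1.29 for NDRG1, 0.93 for PFKFB4, 1.04 for LOX and 0.87 for BNIP3. The other 7 lost the call in some fits, and all of them without DU145KO+α2 replicate 4. ALDOA and GAPDH also lost it without DU145KO+vector replicate 2 or 3, with log2 fold changes of 0.33 to 0.49 and 0.36 to 0.56. LDHA lost it without DU145KO+α2 replicate 1 or DU145KO+vector replicates 2, 3 or 4 as well (0.55 to 0.80), and PGAM1 without DU145KO+α2 replicates 1 or 2 or DU145KO+vector replicates 2 or 3 (0.38 to 0.54). VEGFA lost it without DU145KO+α2 replicates 1 or 3 or DU145KO+vector replicates 2 or 4 (0.39 to 0.55). PFKP lost it in 8 fits, without DU145KO replicates 2 or 4, DU145KO+α2 replicate 2 or any DU145KO+vector sample besides (0.21 to 0.40), and VLDLR without any sample of the 2 lines compared (0.29 to 0.39). The highest adjusted p over these fits was 0.164, for PFKP.

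Compared to DU145KO, BNIP3, ENO2, NDRG1, PDK1, PFKFB4, PFKL and PGK1 remained called higher and P4HA2 lower with any 1 sample left out. The other 7 lost the call without DU145KO+α2 replicate 4. For PGAM1 this was the only such fit (0.42 to 0.63 over all fits). HK2 also lost it without DU145KO+α2 replicate 2 (0.55 to 0.80), LOX and P4HA1 without DU145KO replicates 3 or 4 or DU145KO+α2 replicate 1 (0.80 to 1.20 and 0.39 to 0.64), and TPI1 without DU145KO replicates 2 or 3 or DU145KO+α2 replicate 1 (0.32 to 0.49). ALDOA lost it in 6 fits, without DU145KO replicates 2, 3 or 4, DU145KO+α2 replicate 2 or DU145KO+vector replicate 2 besides (0.31 to 0.49). VLDLR lost it in 9 fits, without DU145KO replicates 1, 3 or 4, any DU145KO+α2 sample, or DU145KO+vector replicates 2 or 3 (0.25 to 0.44). The highest adjusted p over these fits was 0.141, for TPI1.

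Many of these genes differed between the replicate numbers. In a model with line and replicate number, 23 of the 37 members differed between the replicate numbers at an adjusted p below 0.05, where 35.7% of all genes tested did. 12 of the 13 glycolytic enzymes were among them, all but HK1. Replicate 3 was the lowest of the 4 numbers for 16 of the 23 genes and replicate 4 the highest for 13, by the mean deviation from the line means. The share over all genes tested was not determined for these counts. For 11 members replicate 3 was the lowest sample in all 3 lines, compared to 5.00% of all genes tested. These were ALDOA, ENO1, GAPDH, GPI, PFKL, PGAM1 and TPI1 of the glycolytic enzymes, and PFKFB4, EGLN3, BHLHE40 and CA12. PGAM1, for example, deviated by -0.28 in replicate 3 and by 0.15 in replicate 4 on the log2 scale (adjusted p = 0.000583), and PGK1 by -0.19 and 0.18 (adjusted p = 0.00147).

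Another set of members was highest in replicate 3. STC2 deviated by 0.77 there and by -0.48 in replicate 1 (adjusted p = 0.012), MXI1 by 0.20 (adjusted p = 0.00108) and VEGFA by 0.26 (adjusted p = 0.000391). STC2 and VEGFA, 2 of the 37 members, were highest in replicate 3 in all 3 lines, as were 6.75% of all genes tested. DDIT4 and ANGPTL4 also had their highest mean in replicate 3, with deviations of 0.52 and 0.55, but did not pass the test (adjusted p = 0.111 and 0.212). DDIT4 and STC2 are also known targets of the response to amino acid shortage and endoplasmic reticulum stress. Of 9 genes of that response 7 differed between the replicate numbers, where 35.7% of all genes tested did. TRIB3 deviated by 0.84 and ASNS (asparagine synthetase) by 0.71 in replicate 3. Of these 7, 6 were highest in replicate 3, and ATF3 was highest in replicate 4 (0.55, against 0.12 in replicate 3). The share of all genes tested with their highest mean deviation in replicate 3 was not determined. None of the 9 was called between any 2 lines by edgeR, DESeq2 or voom with limma, and at an unadjusted p below 0.05 edgeR gave 1, lower in DU145KO+α2 than in DU145KO. The part of this stress response in the values of the members was not tested. The labels do not say what the replicate number stands for.

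**Figure D4:**
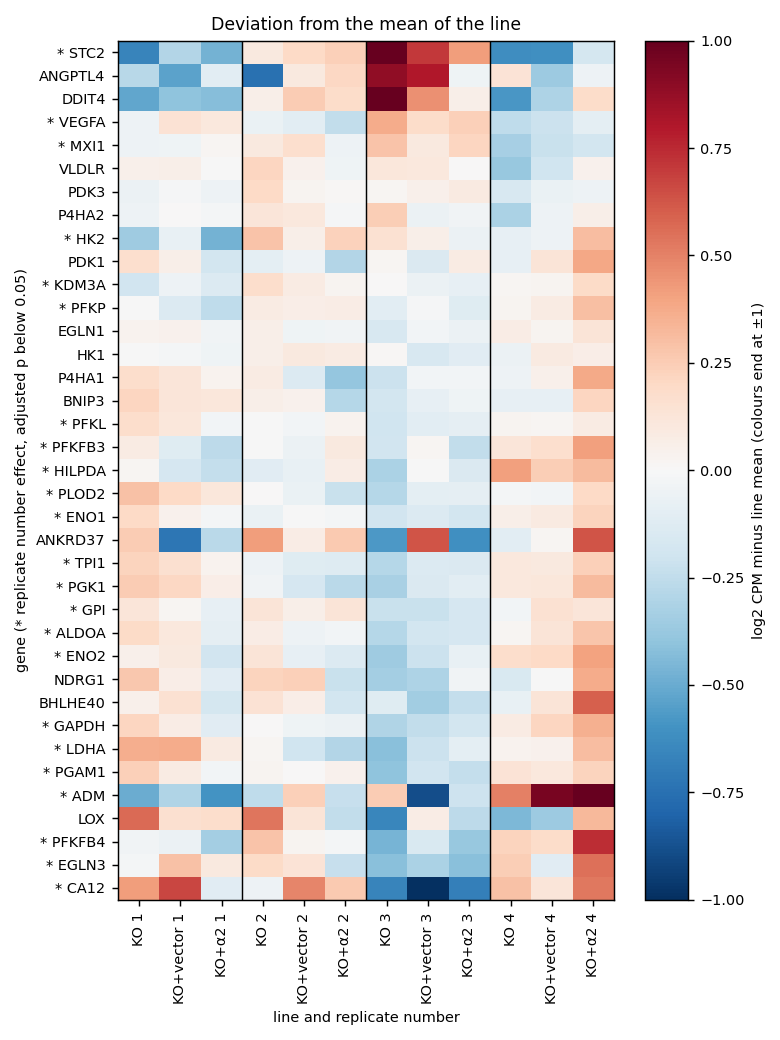
Deviation of each sample from the mean of its line in log2 CPM (colours end at ±1), for the 37 genes, with samples grouped by replicate number and asterisks for genes with a replicate number effect. Most glycolytic enzymes are blue in replicate 3 and red in replicate 4, and STC2, DDIT4 and ANGPTL4 at the top are red in replicate 3.

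The spread between replicates of a line was somewhat larger for these genes than for genes in general. The SD of log2 CPM within a line, averaged over the lines, had a median of 0.203 over the members, compared to 0.157 over all genes tested. The smallest spread was found for EGLN1 (0.0797), HK1 (0.0872), PDK3 (0.0898), PFKL (0.106) and KDM3A (0.120). The largest was found for ADM (0.652), CA12 (0.629), STC2 (0.614), ANKRD37 (0.516) and DDIT4 (0.488). The median was 0.182 for the glycolytic enzymes and 0.545 for the secreted factors. CA12, ADM and ANKRD37 had low levels, between 0.430 and 5.85 CPM, whereas STC2 and DDIT4 were at 26.6 to 360 CPM. With such a spread, a difference as large as the log2 fold change of STC2 compared to DU145KO, -0.85 ± 0.44 (SE, adjusted p = 0.308), was not called.

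The rest of the pathway was followed with lists of genes that were not members. Of 22 other genes of glycolysis and glucose transport, 13 were tested and 0 were called in any of the 3 comparisons. At an unadjusted p below 0.05 edgeR gave 1 of them, PKM, higher in DU145KO+α2 than in DU145KO, where DESeq2 called 1 and voom with limma 0. PKM, the muscle pyruvate kinase, had a log2 fold change of 0.30 ± 0.10 (SE, adjusted p = 0.0905) compared to DU145KO, and 0.30 ± 0.06 (SE, adjusted p = 0.000976) with the block. SLC2A1, the glucose transporter GLUT1, had 55.1 to 75.5 CPM in DU145KO+α2 compared to 60.9 to 79.3 CPM in DU145KO+vector, and 54.4 to 89.8 CPM in DU145KO, with a log2 fold change of -0.059 ± 0.15 (SE, adjusted p = 0.868) compared to DU145KO+vector. Of 9 genes of the pyruvate dehydrogenase complex and its regulators, PDK4 alone was called, lower in DU145KO+α2 than in DU145KO, -0.68 ± 0.16 (SE, adjusted p = 0.0203), and -0.67 ± 0.21 (SE, adjusted p = 0.066) with the block, when DLAT was called higher compared to DU145KO+vector, 0.16 ± 0.054 (SE, adjusted p = 0.0269). PDK4 thus had the opposite sign to PDK1 and PDK3. Of 9 genes tested of the pentose phosphate pathway and gluconeogenesis, TALDO1 (transaldolase) and FBP1 (fructose bisphosphatase) were called lower than in DU145KO+vector, -0.36 ± 0.073 (SE, adjusted p = 0.00352) and -0.93 ± 0.23 (SE, adjusted p = 0.0138), and TALDO1 also compared to DU145KO, -0.33 ± 0.073 (SE, adjusted p = 0.00982). With the block 3 genes of this list, TALDO1, FBP1 and PGD, were called lower compared to DU145KO (12.4% of all genes tested).

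Among 10 genes tested of the HIF factors and their regulators, HIF1A, the oxygen regulated subunit of HIF, was measured at 1509, 1144, 1337 and 1081 CPM in DU145KO+α2 against 1031, 858, 882 and 912 CPM in DU145KO+vector, and 909, 845, 873 and 901 CPM in DU145KO. DU145KO+α2 was above both lines without overlap, 0.46 ± 0.10 (SE, adjusted p = 0.007) and 0.52 ± 0.10 (SE, adjusted p = 0.00394). EPAS1, which encodes HIF-2α, differed in another way. It had 191, 161, 178 and 139 CPM in DU145KO+α2 compared to 125, 109, 92.04 and 81.6 CPM in DU145KO+vector, and 218, 194, 182 and 141 CPM in DU145KO, so that DU145KO+vector was the line apart. Its log2 fold change was 0.72 ± 0.15 (SE, adjusted p = 0.00615) between DU145KO+α2 and DU145KO+vector, and -0.85 ± 0.15 (SE, adjusted p = 0.00818) in DU145KO+vector compared to DU145KO. ARNT2, a partner of the HIF subunits, was called higher than in DU145KO+vector, 0.68 ± 0.12 (SE, adjusted p = 0.00152), and compared to DU145KO with the block only, 0.40 ± 0.077 (SE, adjusted p = 0.000592) in place of 0.40 ± 0.12 (SE, adjusted p = 0.0525). VHL and HIF1AN, which restrain HIF, were not called, with -0.041 ± 0.075 (SE, adjusted p = 0.799) and -0.058 ± 0.095 (SE, adjusted p = 0.775). With the block CITED2 was also called higher in DU145KO+α2 than in both lines, and ARNT2 lower in DU145KO+vector than in DU145KO, -0.29 ± 0.08 (SE, adjusted p = 0.0179). HIF protein was not measured in these data.

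Of 25 other known HIF target genes, 23 were tested. When DU145KO+α2 was set against DU145KO+vector, 15 were called higher and 0 lower (5.96% and 5.95% of all genes tested), with a median log2 fold change of 0.54. For the lower direction DESeq2 and voom with limma also called 0, and edgeR gave 1 at an unadjusted p below 0.05. Compared to DU145KO, 8 were called higher and 0 lower (3.09% and 5.08% of all genes tested), with a median of 0.24. No gene of the list was called lower there by DESeq2 or voom with limma or had an unadjusted p below 0.05 in that direction. The largest difference compared to DU145KO+vector was that of STC1, a stanniocalcin, measured at 12.3, 11.3, 12.7 and 20.2 CPM in DU145KO+α2 against 4.10, 2.44, 1.21 and 1.03 CPM in DU145KO+vector, and 8.07, 7.81, 7.19 and 5.73 CPM in DU145KO. DU145KO+vector was lowest, and the log2 fold change was 2.66 ± 0.34 (SE, adjusted p = 0.000282) compared to DU145KO+vector and 0.97 ± 0.30 (SE, adjusted p = 0.0679) compared to DU145KO. AKAP12, a scaffold protein, had 1.21 ± 0.13 (SE, adjusted p = 5.08e-05) and 0.98 ± 0.13 (SE, adjusted p = 0.000258), and MIR210HG, the host gene of a microRNA known to be induced by hypoxia, 1.08 ± 0.19 (SE, adjusted p = 0.0014) and 0.96 ± 0.19 (SE, adjusted p = 0.00389). SPAG4 had the largest called difference of the list compared to DU145KO, 1.01 ± 0.15 (SE, adjusted p = 0.000479), and 0.91 ± 0.15 (SE, adjusted p = 0.000873) compared to DU145KO+vector. For FAM162A these were 0.69 ± 0.16 (SE, adjusted p = 0.0126) and 0.76 ± 0.16 (SE, adjusted p = 0.00541). RORA, a nuclear receptor, was called compared to DU145KO+vector, 1.06 ± 0.18 (SE, adjusted p = 0.00101). In DU145KO+vector compared to DU145KO, LOXL2, STC1 and RORA were called lower, -0.39 ± 0.093 (SE, adjusted p = 0.0389), -1.69 ± 0.35 (SE, adjusted p = 0.023) and -0.86 ± 0.18 (SE, adjusted p = 0.0175). There, 0 genes of the list were higher by edgeR, DESeq2 or voom with limma or at an unadjusted p below 0.05. Over all genes tested, 1.84% were called lower in that comparison and 0.496% higher. With the block 7 genes of the list were called lower there (7.85% of all genes tested), and PPP1R3C, a glycogen regulator, was called lower in DU145KO+α2 than in either α2 negative line. Higher under the block were 17 genes compared to DU145KO+vector and 11 compared to DU145KO (12.9% and 9.93% of all genes tested). CCNG2 and IGFBP3 were called against DU145KO+vector under the block alone. IGFBP3 had 1.90 ± 0.53 (SE, adjusted p = 0.0424) there, and -1.70 ± 0.52 (SE, adjusted p = 0.091) in DU145KO+vector compared to DU145KO.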

How the data were processed

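The authors aligned single-end reads of the stranded mRNA libraries to hg38 with TopHat 2.1.0 and counted uniquely aligned reads per gene with Subread 1.5.0 after base calling with bcl2fastq 1.8.4, and deposited these read counts without normalization for 12 samples. They also deposited RPKM values, made after TMM normalization, which were used only to compare levels between genes. The strand setting of the counting and the lane of each sample were not given in the sources used here.

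The tests on the counts used R 4.3.3 and edgeR 4.0.16 (filterByExpr with a minimum count of 10, TMM, robust quasi-likelihood F-test, two-sided, all 12 samples in 1 model with line as the factor), limma 3.58.1 and DESeq2 1.42.0. A Benjamini-Hochberg adjusted p below 0.05 over all 14732 genes tested is a call, and SE is the log2 fold change divided by the square root of F. The 39 genes, their roles and the lists were chosen with earlier results of these data known. All members are named, called members with every sample, and of the other lists the called genes, up to 4 a comparison by log2 fold change, with SLC2A1, VHL, HIF1AN and genes called with the block alone added after their values were seen. Pairing of the replicate numbers was checked by correlating deviations from the line means over genes. It was above 0.1 in all 12 pairs of samples with the same number (0.135 to 0.554, mean 0.378), compared to -0.290 to 0.149 (mean -0.126) in 36 pairs with different numbers, so that the ranges overlapped slightly. Deviations cancel out within a line, so a positive correlation for the same number pushes that for different numbers down. The lower mean for different numbers is therefore not separate evidence of pairing. The pairing rests on the numbers of the labels and this check. Alternatives were other normalizations, filters and tests, the compared groups alone, the block, and each sample left out. The scripts were tested on simulated data. Promoters come from RefSeq, with the first listed window per gene. Detection floors cover counting error only. Of the prostate luminal markers, those other than KLK2 and KLK3 are not reported here.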

Additional observations from a re-analysis of the deposited data

Results flagged for a closer look

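Of 114 groups of 4 samples tested (39 genes in 3 lines, without 3 groups at or under the detection floor), 4 had 1 sample far from the others by Dixon's test, where chance would give about 5.7. All 4 were DU145KO+α2 replicate 4. BHLHE40 was at 87.4 CPM there and between 49.1 and 51.2 CPM in the line's other samples, a gap of 0.944 of the range. EGLN1 was at 165.8 CPM compared to 145.4 to 148 CPM, a gap of 0.860 of the range. ADM was at 4.52 CPM compared to 1.37 to 1.83 CPM, a gap of 0.853 of the range. ENO2 was at 93.1 CPM compared to 61.8 to 66.8 CPM, a gap of 0.840 of the range.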

How the results depend on the processing

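DU145KO+α2 compared to DU145KO+vector had 18 members higher, 11 to 18 with 1 sample left out (the lowest without DU145KO+α2 replicate 4 or DU145KO+vector replicate 2) and 3 with a fold change above 2. Compared to DU145KO, 14 members were higher, 22 with the replicate block, 9 with the compared groups only, 0 with a fold change above 2 and 7 to 14 with 1 sample left out. The 1 member lower there became 3 with the block, 4 with the block and without DU145KO+α2 replicate 4 (chosen after seeing the data), 0 with a fold change above 2 and 1 to 2 with 1 sample left out. In DU145KO+vector compared to DU145KO, the 1 member lower became 4 with the block, 8 with the block and without DU145KO+α2 replicate 4, 0 with no filter, 0 with the compared groups only, 0 with a fold change above 2 and 0 to 2 with 1 sample left out. The cause of these moves was not tested. The 8 members were BHLHE40, BNIP3, EGLN3, MXI1, NDRG1, P4HA1, P4HA2 and PLOD2. BNIP3, NDRG1 and P4HA1, also called higher in DU145KO+α2 than in both lines, had log2 fold changes of -0.23, -0.68 and -0.26 there. For the counts with the block and without DU145KO+α2 replicate 4, the share of all genes tested called lower was not determined. The replicate number effect was found for 19 to 24 members with 1 sample left out. Of the 34 called log2 fold changes, all kept their direction under every alternative. 34 kept the call with DESeq2's size factors and with the DESeq2 Wald test, 33 with library size alone, voom with limma, no filter, at least 10 counts in every sample or the block, and 27 with the compared groups only. The block ended no call but that of NDRG1 in DU145KO+vector compared to DU145KO. Low counts limit CA9, ALDOC, CA12, ADM and ANKRD37.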
